A study of Rattus norvegicus with 9 samples.

Results

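Granins are acidic secretory proteins of dense core vesicles, and with the enzymes that cut and trim peptide precursors they form a group of 9 genes followed here in rat vestibular epithelium. The members are the granins Chga, Chgb, Scg2, Scg3 and Vgf, the chaperone Scg5, the convertases Pcsk1 and Pcsk2, and the carboxypeptidase Cpe. They were chosen by name, with earlier results of these data known, and each of the 9 symbols matched a single entry of the 32883 genes counted. Male Long-Evans rats drank water with 20 mM 3,3'-iminodipropionitrile (IDPN), a nitrile that damages vestibular hair cells (HCs), for 3 weeks (IDPN-3wk) or 7 weeks (IDPN-7wk), and control rats drank plain water. RNA came from the 2 utricles and 6 cristae of 1 rat per library, with 3 libraries in each of the 3 groups, and the rats' exact age was not given in the sources used here. The control group included rats killed at each time point, which the labels do not tell apart. The same 3 controls served both exposures. The labels give all 9 libraries a single batch, and replicate numbers were assigned here in the order of the samples and pair no animals. The sample titles carry a code, with no meaning given, that is shared by all 3 controls, by IDPN-3wk 2 and 3, by IDPN-7wk 2 and 3, and by IDPN-3wk 1 and IDPN-7wk 1, so that whatever it marks cannot be told apart from exposure in comparisons with control.

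Neuroendocrine cells and many neurons store peptides and granins in dense core vesicles, which form at the trans-Golgi network and release their content on stimulation. In the maturing vesicle the prohormone convertases PC1/3 (Pcsk1) and PC2 (Pcsk2) cut precursors at pairs of basic residues, carboxypeptidase E (Cpe) removes the basic residues left at the new ends, and the amidating enzyme Pam finishes many peptides. The protein 7B2 (Scg5) binds the precursor of PC2 and allows it to become active. In the vestibular epithelium HCs release glutamate from ribbon synapses, and the efferent fibres that contact HCs and afferents carry neuropeptides beside acetylcholine.

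Promoter sequences are shown for the 4 members that were lower in IDPN-7wk rats and for Scg2, the member whose estimate lay on the other side, because the cAMP response element (CRE, TGACGTCA) is a known control element of several granin genes. They were taken from RefSeq on the GRCr8 assembly, whereas the counts were made on Rnor6.0, and each run holds the 250 bases before the annotated gene start, 5′ to 3′ on the strand of the gene. Of the 9 members, 7 were found in that table. Capitals mark a CRE or, outside a CRE, its half-site (TGACG, or CGTCA on the other strand). The windows are chr3:121042796-121043045 (minus strand) for Scg5, chr16:29796457-29796706 (plus) for Cpe, chr8:85322485-85322734 (minus) for Scg3, chr3:140496462-140496711 (plus) for Chgb and chr9:88256867-88257116 (minus) for Scg2.
Scg5: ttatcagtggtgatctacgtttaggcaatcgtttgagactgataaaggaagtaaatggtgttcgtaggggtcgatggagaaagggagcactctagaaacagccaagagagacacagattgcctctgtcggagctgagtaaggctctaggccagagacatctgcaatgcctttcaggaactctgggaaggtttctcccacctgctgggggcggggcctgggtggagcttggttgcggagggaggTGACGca
Cpe: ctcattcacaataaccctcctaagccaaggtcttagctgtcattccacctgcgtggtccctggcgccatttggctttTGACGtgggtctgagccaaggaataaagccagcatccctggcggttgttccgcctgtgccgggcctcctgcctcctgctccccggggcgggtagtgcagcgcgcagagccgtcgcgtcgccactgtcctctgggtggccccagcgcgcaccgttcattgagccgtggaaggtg
Scg3: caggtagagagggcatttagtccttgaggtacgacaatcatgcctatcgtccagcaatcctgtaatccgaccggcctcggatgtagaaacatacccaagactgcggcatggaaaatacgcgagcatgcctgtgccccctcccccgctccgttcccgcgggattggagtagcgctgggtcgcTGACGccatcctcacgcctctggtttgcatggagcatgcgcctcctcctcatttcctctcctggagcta
Chgb: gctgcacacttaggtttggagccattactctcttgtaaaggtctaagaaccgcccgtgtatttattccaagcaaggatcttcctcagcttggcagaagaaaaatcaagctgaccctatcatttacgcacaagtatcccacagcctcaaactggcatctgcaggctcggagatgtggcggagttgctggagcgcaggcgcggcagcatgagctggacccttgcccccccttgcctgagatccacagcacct
Scg2: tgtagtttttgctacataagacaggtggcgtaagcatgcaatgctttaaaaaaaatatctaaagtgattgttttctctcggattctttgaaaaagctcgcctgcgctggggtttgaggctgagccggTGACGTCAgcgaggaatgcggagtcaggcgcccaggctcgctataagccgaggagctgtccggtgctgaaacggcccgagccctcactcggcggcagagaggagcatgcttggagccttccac
A full CRE was found in the windows of Scg2 and Vgf, that is in 2 of 7, and in 1.59% of 33469 rat promoters of the same length. The half-site, which every CRE also holds, was found in 6 of 7 members and in 18.2% of all promoters. It lay 7 bases before the start of Scg5, 69 before that of Scg3 and 173 before that of Cpe, and Chgb had none. A TATAAA box was found in Vgf alone, against 12.9% of promoters. These matches describe the letters in the windows and were not tested against the counts.

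Transcripts of 4 members fell in IDPN-7wk rats: Scg5, Cpe, Scg3 and Chgb, the first 2 of them to 37.4% and 41.6% of the control mean. Scg5 alone was a DEG in IDPN-3wk rats, in which Chgb was below every control too but did not pass. Genes were called DEGs when edgeR's quasi-likelihood test, fitted on all genes that passed a filter on low counts, gave an adjusted p below 0.05 and the fold change exceeded 1.5. Of the 9 members, 7 passed that filter; Pcsk2 and Vgf did not. In IDPN-3wk rats, 1 of the 7 was a DEG and lower, where 1.21% of all genes tested were lower DEGs, and none was higher, against 0.438%. In IDPN-7wk rats, 4 of the 7 were lower DEGs, against 3.13% of all genes, and none was higher, against 2%. From IDPN-3wk to IDPN-7wk rats, 1 of the 7 was a lower DEG, against 0.135%, and none was higher, against 0.348%. The median log2 fold change of the 7 was -0.49, -0.83 and -0.79 in these comparisons, while the median of all genes tested was within 0.01 of 0. The medians of the 7 include the fitted value of Pcsk1, although it had 0 counts in every IDPN-7wk rat. Placing Pcsk1 at the bound that 3 counts allow, done only in the comparisons of IDPN-7wk rats, left the 7-week median at -0.83. It made the third median -0.48, which is the bound itself. With DESeq2, which called more genes, Scg5 remained the 1 member called lower at 3 weeks (3.5% of all genes), the same 4 members were called lower at 7 weeks (5.33%), and Scg5, Scg3 and Cpe were called lower between the IDPN groups (2.03%).

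Library totals ran from 31100118 to 46018385 counts, so 3 counts, the lowest level taken as visible, lay between 0.0611 and 0.101 CPM, the counts scaled by library size. At equal depth, Control 3, IDPN-3wk 1 and IDPN-3wk 2 had 15223 to 15358 genes detected, and the other 6 libraries had 16608 to 17090. The first 3 are called low-detection libraries here, and differences within and outside them are given beside the results they touch. In a bulk sample, fewer cells of a type and less RNA per cell cannot be told apart. With 3 rats a group, the smallest two-sided p of an exact permutation test is 0.1, so single genes rest on the model fitted across all genes. Levels are CPM after TMM normalization, with no correction for transcript length, and are compared between groups but not between genes.

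Scg5 (ENSRNOG00000007542), the 7B2 chaperone of PC2, was at 109, 100 and 129 CPM in the controls. It was at 75.7, 75.2 and 67.3 CPM in the IDPN-3wk rats and at 39.7, 43.9 and 42.9 CPM in the IDPN-7wk rats. No library of one group reached the range of another, and the levels lay in the order of exposure. Mean levels were 113 ± 14.6, 72.8 ± 4.70 and 42.2 ± 2.17 CPM (SD, n = 3). The log2 fold change was -0.63 in IDPN-3wk rats (SE 0.119, edgeR adjusted p = 0.0269) and -1.42 in IDPN-7wk rats (SE 0.120, adjusted p = 0.000167), where its p was the 28th smallest of 15517. Tested directly against the IDPN-3wk rats, the IDPN-7wk rats differed by -0.79 (SE 0.119, edgeR adjusted p = 0.0182). Among the low-detection libraries, the 3-week difference of log2(CPM + 2) was -0.76, and among the other libraries it was -0.62. Among those others the difference between the IDPN groups was -0.65. The 7-week call held without any single library, whereas the 3-week call was lost without any 1 of the 3 controls, of the 3 IDPN-3wk rats or without IDPN-7wk 3 (edgeR adjusted p from 0.0518 to 0.0904). It was also lost without the low-detection libraries (adjusted p = 0.0739) and with only the 2 groups compared in the fit (0.0888). The call between the IDPN groups was lost without IDPN-3wk 1 or 2 or any 1 of the IDPN-7wk rats (adjusted p from 0.0565 to 0.109), and with the low-detection libraries left out (0.0666) or as a covariate (0.104).

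Cpe (ENSRNOG00000043387), the carboxypeptidase that trims peptides after the convertases have cut, had 334, 349 and 389 CPM in the controls. The IDPN-3wk rats had 403, 360 and 232 CPM and the IDPN-7wk rats 86.0, 174 and 186 CPM. The IDPN-3wk levels spread on both sides of the control range, with IDPN-3wk 3 below it, whereas every IDPN-7wk rat was below every other rat, and IDPN-7wk 1 was the lowest. Means were 357 ± 28.5, 332 ± 89.0 and 149 ± 54.7 CPM (SD, n = 3). On the log2 scale Cpe changed by -0.11 at 3 weeks (95% confidence interval -0.71 to 0.50, edgeR adjusted p = 0.901) and -1.26 at 7 weeks (interval -1.88 to -0.65, adjusted p = 0.0244). Between the IDPN groups it was -1.16, which did not pass (SE 0.276, edgeR adjusted p = 0.119). Without IDPN-3wk 3 that difference was called (-1.36, edgeR adjusted p = 0.0388). The 7-week call was lost without any 1 of the controls or without IDPN-7wk 2 (edgeR adjusted p from 0.0513 to 0.0750). It was also lost without the low-detection libraries (-1.20, adjusted p = 0.0709). At 3 weeks the difference of log2(CPM + 2) was -0.03 among the low-detection libraries and -0.55 among the others, and the edgeR estimate without the former was -0.55 (adjusted p = 0.600). Between the IDPN groups the estimate without them was -0.65 (adjusted p = 0.619).

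The convertases themselves were near the limit of detection. Pcsk1 (ENSRNOG00000011107), the gene of PC1/3, had 17, 17 and 0 counts in the controls, 0, 0 and 9 in the IDPN-3wk rats and 0 in each IDPN-7wk rat. It was not called in any comparison (edgeR adjusted p of 0.722, 0.223 and 0.472 at 3 weeks, 7 weeks and between the IDPN groups), and with groups at 0 no fold change is given. Without the low-detection libraries, one of which is the control at 0, it was called lower at 7 weeks (edgeR adjusted p = 0.0320). Pcsk2 (ENSRNOG00000005438), the gene of PC2, had 5 and 2 counts in Control 1 and Control 2 and 0 in every other library, and was not tested. Scg5, the chaperone of PC2, was thus counted in every library, while a count for Pcsk2 was obtained in 2 of 9.

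**Figure D1:**
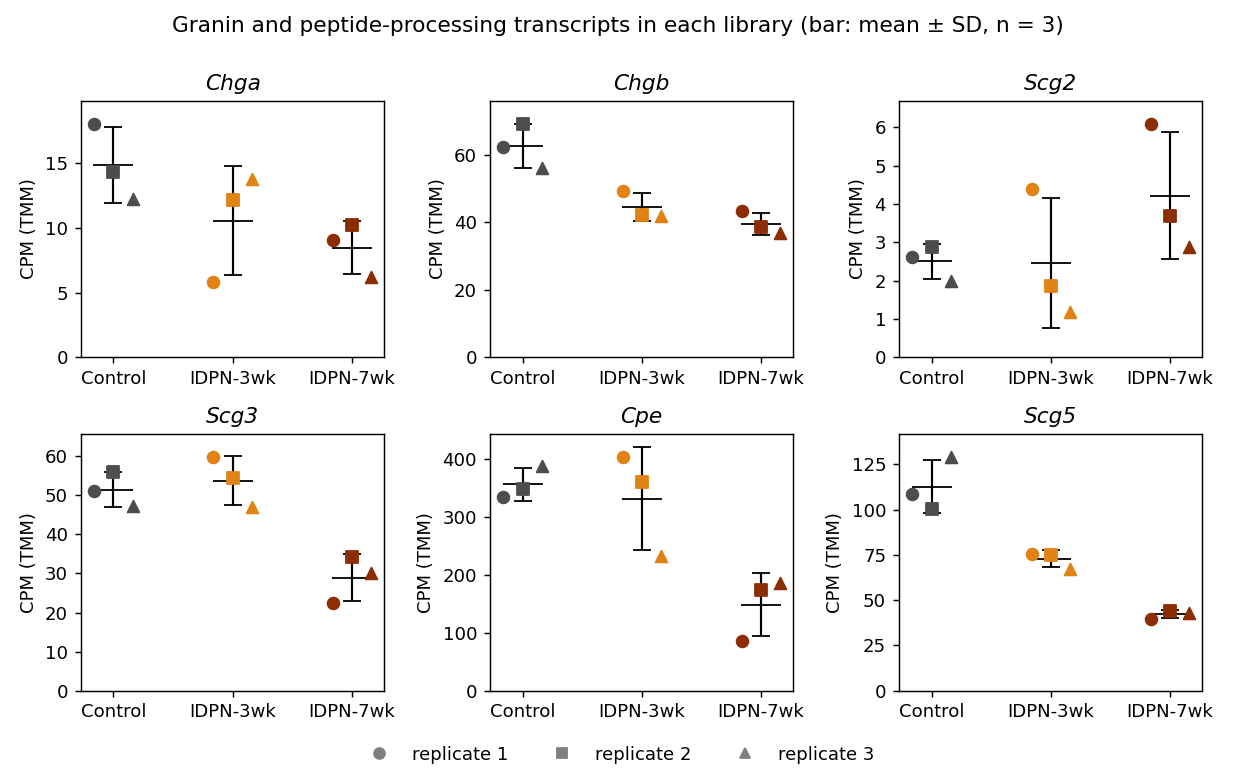
Levels of 6 members in each library, in CPM after TMM normalization, for control, IDPN-3wk and IDPN-7wk rats. Points are libraries, with a marker for each replicate number, and bars are the mean ± SD of 3 rats on an axis that starts at 0. Scg5 falls at each time without overlap between groups, Scg3 and Cpe are low in the IDPN-7wk rats, and Scg2 spreads widely.

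Scg3 (ENSRNOG00000010784), secretogranin III, which binds chromogranin A and the vesicle membrane, was at 51.2, 56.0 and 47.2 CPM in the controls. It was at 59.7, 54.4 and 47.1 CPM in the IDPN-3wk rats and at 22.4, 34.2 and 30.1 CPM in the IDPN-7wk rats. The first 2 groups overlapped almost fully, and the 3 IDPN-7wk rats were below all others. The means were 51.5 ± 4.45, 53.8 ± 6.33 and 28.9 ± 6.00 CPM (SD, n = 3). On the log2 scale Scg3 changed by 0.06 at 3 weeks, which did not pass (edgeR adjusted p = 0.908), and by -0.83 at 7 weeks (SE 0.172, adjusted p = 0.0189). At 3 weeks its interval was -0.32 to 0.44. The difference between the IDPN groups was -0.90 and did not pass with edgeR (SE 0.172, adjusted p = 0.0621), although DESeq2 called it (adjusted p = 0.000178). At 3 weeks the sign differed between these kinds of library, at 0.26 among the low-detection libraries and -0.18 among the others (differences of log2(CPM + 2)). The 7-week call was lost without Control 1, Control 2, IDPN-7wk 1 or IDPN-7wk 3 (edgeR adjusted p from 0.0611 to 0.0771), and without IDPN-3wk 3 the difference between the IDPN groups was called (-0.98, adjusted p = 0.0354).

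Chgb (ENSRNOG00000021269), chromogranin B, a major matrix protein of dense core vesicles, was at 62.4, 69.3 and 56.3 CPM in the controls, 49.3, 42.3 and 42.03 CPM in the IDPN-3wk rats and 43.3, 38.6 and 36.8 CPM in the IDPN-7wk rats. All 6 exposed rats were below the lowest control, and the IDPN groups overlapped each other. The means of 62.7 ± 6.51, 44.5 ± 4.10 and 39.6 ± 3.34 CPM (SD, n = 3) put the exposed groups at 71.1% and 63.1% of control. Chgb was a DEG at 7 weeks, lower by the log2 value of -0.66 (SE 0.132, edgeR adjusted p = 0.0155). The 3-week estimate had an interval of -0.79 to -0.20 but an edgeR adjusted p of 0.0995. DESeq2 gave an adjusted p of 0.00985 for it, with a fold change under 1.5. The authors, who used DESeq2 with the same thresholds, list Chgb as lower in all of their comparisons with control, the 3-week one included. The reason for this difference was not tested. From 3 to 7 weeks the estimate was -0.17, with an interval of -0.46 to 0.12. The 7-week call was lost without Control 1, Control 2, IDPN-7wk 2 or IDPN-7wk 3 (edgeR adjusted p from 0.0573 to 0.0807).

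Chga (ENSRNOG00000052549), chromogranin A, the precursor of several peptides and a factor in vesicle formation, had 18.1, 14.3 and 12.3 CPM in the controls. It had 5.80, 12.2 and 13.8 CPM in the IDPN-3wk rats and 9.08, 10.2 and 6.18 CPM in the IDPN-7wk rats. IDPN-3wk 1 held the lowest level of all libraries, and the IDPN-7wk rats were all below the controls. Controls averaged 14.9 ± 2.94 CPM and the IDPN-7wk rats 8.49 ± 2.08 CPM (SD, n = 3). Neither the 3-week estimate of -0.49 (log2, edgeR adjusted p = 0.524) nor the 7-week one of -0.81 (interval -1.57 to -0.05, adjusted p = 0.226) passed. Without the low-detection libraries, the 7-week value was -0.93 and passed (edgeR adjusted p = 0.0359).

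Scg2 (ENSRNOG00000015055), secretogranin II, the precursor of secretoneurin, was low in all groups, at 2.62, 2.88 and 2.00 CPM in the controls and 4.39, 1.85 and 1.17 CPM in the IDPN-3wk rats. The IDPN-7wk rats had 6.09, 3.68 and 2.89 CPM, the last barely above the highest control. Its 7-week log2 fold change was 0.76, with an interval of -0.49 to 2.00 (edgeR adjusted p = 0.534), wide enough to hold either direction. At 3 weeks it was -0.01 (adjusted p = 0.994), and the sign differed, with 0.31 among the low-detection libraries and -0.58 among the others on the log2(CPM + 2) scale. Vgf (ENSRNOG00000001416), the precursor of the VGF peptides, had 0 counts in all 9 libraries.

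**Figure D2:**
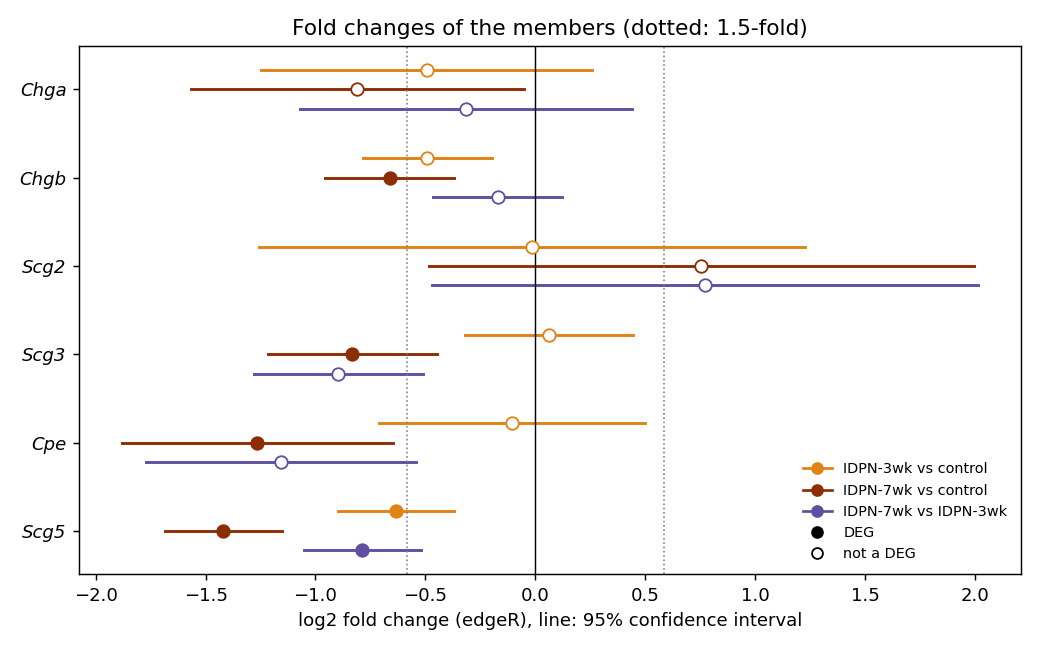
The log2 fold changes of 6 members in the 3 comparisons, from edgeR, with 95% confidence intervals as lines, filled points for DEGs and dotted lines at a fold change of 1.5. At 7 weeks 4 members lie beyond the dotted line as DEGs, Scg5 is filled in all comparisons, and the intervals of Scg2 cross 0 in each.

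Other genes of the secretory pathway were followed by 3 lists. Among 18 other convertase and peptide-trimming genes (19 entries, since Gnas is listed 2 times, of which 17 were tested), 1 was a lower and 1 a higher DEG at 3 weeks, and 1 was a lower DEG at 7 weeks. These single genes of 17 stand beside 1.21% lower and 0.438% higher among all genes at 3 weeks and 3.13% lower at 7 weeks. Their medians were -0.005 and -0.15 on the log2 scale. Pcsk5, the convertase PC5/6, which cuts growth factors and receptors as well as hormones, fell from 71.2 ± 6.54 CPM to 42.1 ± 5.03 and 43.7 ± 0.929 CPM (SD, n = 3). The log2 difference was -0.76 for IDPN-3wk (edgeR adjusted p = 0.0174) and -0.71 for IDPN-7wk rats (adjusted p = 0.00963). It was lost without Control 1 at both times (adjusted p = 0.0870 and 0.0504) and without Control 2 at 3 weeks (0.0677), and at 3 weeks also with only the 2 groups compared in the fit (0.0764).

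Qpct, glutaminyl cyclase, which forms the pyroglutamate end of some peptides, was the higher DEG. It had 31.5, 29.3 and 28.5 CPM in controls, 60.3, 60.3 and 49.9 CPM in IDPN-3wk rats and 28.5, 22.3 and 30.0 CPM in IDPN-7wk rats. The IDPN-3wk rats were above all others, and the IDPN-7wk rats lay within or under the control range. On the log2 scale the 3-week difference was 0.93 (edgeR adjusted p = 0.0148) and the 7-week difference -0.15 (adjusted p = 0.688), and the IDPN groups differed by -1.08 (adjusted p = 0.0124). The 3-week call was lost without any 1 of the controls (edgeR adjusted p from 0.0509 to 0.0732) and without the low-detection libraries (0.72, adjusted p = 0.133), 2 of which are IDPN-3wk rats. The call between the IDPN groups was lost without IDPN-7wk 1 (edgeR adjusted p = 0.0599), with only the 2 groups compared in the fit (0.0549), with the low-detection libraries as a covariate (0.104) and without the low-detection libraries (-0.90, adjusted p = 0.0978). Neither Furin, the convertase of the constitutive pathway, nor Pam passed. Pam was at 619 ± 258, 577 ± 162 and 313 ± 53.8 CPM (SD, n = 3), with a 7-week log2 fold change of -0.98 (edgeR adjusted p = 0.0805), and Furin had estimates of 0.40 and 0.35 (adjusted p = 0.205 and 0.210). Pcsk1n, the gene of the PC1/3 inhibitor proSAAS, had 0 counts in all libraries.

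Of 21 genes of dense core vesicle formation, transport and release, 18 were tested. None was a DEG by edgeR at 3 weeks, and 3 were lower DEGs at 7 weeks, when 3.13% of all genes were, with a median of -0.48 over the 18. Cadps2, a priming factor for vesicle release, went from 19.0 ± 7.07 to 8.25 ± 3.03 and 4.66 ± 0.990 CPM (SD, n = 3), and its 7-week log2 fold change was -2.03 (edgeR adjusted p = 0.00828). At 3 weeks its estimate of -1.21 did not pass with edgeR (adjusted p = 0.119), but it was called by DESeq2 (adjusted p = 0.0190) and by edgeR with the low-detection libraries as a covariate (-1.44, adjusted p = 0.0364). Resp18, a luminal protein of the secretory pathway, went from 51.4 ± 11.9 to 40.4 ± 3.34 and 24.6 ± 1.52 CPM and was lower at 7 weeks by the log2 fold change of -1.06 (edgeR adjusted p = 0.00703). Rab3a, a vesicle GTPase found on synaptic vesicles too, was at the edge of the threshold at 7 weeks (-0.61, edgeR adjusted p = 0.0454). The calls of Cadps2 and Resp18 held without any single library, while that of Rab3a was lost without Control 1, Control 3, IDPN-3wk 2, IDPN-3wk 3 or any 1 of the IDPN-7wk rats (adjusted p from 0.0510 to 0.169), and with the low-detection libraries left out (0.0587) or as a covariate (0.0856). The close relative Cadps had estimates of -1.17 and -1.24 and did not pass (edgeR adjusted p = 0.267 and 0.181). The vesicle membrane proteins Ptprn and Ptprn2 were not called either. Ptprn2 had 36, 26 and 76 counts in the controls, 0 in each IDPN-3wk rat and 7, 0 and 13 counts in the IDPN-7wk rats (edgeR adjusted p = 0.0919 and 0.288), and for Ptprn the adjusted p was 0.547 and 0.715.

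Of 33 genes for peptide precursors that these vesicles could carry, 14 passed the filter, beside 15517 of all 32883 genes counted. Npy, the precursor of neuropeptide Y, rose in both exposed groups. It was at 37.4, 42.1 and 39.8 CPM in controls, 130, 90.3 and 104 CPM in IDPN-3wk rats and 103, 107 and 135 CPM in IDPN-7wk rats, so every exposed rat was above every control. On the log2 scale Npy was higher by 1.44 after 3 weeks (edgeR adjusted p = 0.00207) and by 1.53 after 7 (adjusted p = 0.000477), and both calls held in every alternative tried. Penk, the precursor of the enkephalins, was at 19.3 ± 3.88 CPM in controls, 11.6 ± 0.286 in IDPN-3wk rats and 9.91 ± 0.736 in IDPN-7wk rats (SD, n = 3). It was a DEG at 7 weeks (-0.96, edgeR adjusted p = 0.0211) and did not pass at 3 weeks with edgeR (-0.74, adjusted p = 0.107), although DESeq2 called it then (-0.73, adjusted p = 0.00910). Its 7-week call was lost without Control 1, Control 2 or any 1 of the IDPN-7wk rats (edgeR adjusted p from 0.0657 to 0.0999). The precursor list thus held 1 higher DEG at 3 weeks, and 1 higher and 1 lower DEG at 7 weeks, single genes of 14, beside 0.438% of all genes higher at 3 weeks and 2% higher and 3.13% lower at 7 weeks.

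**Figure D3:**
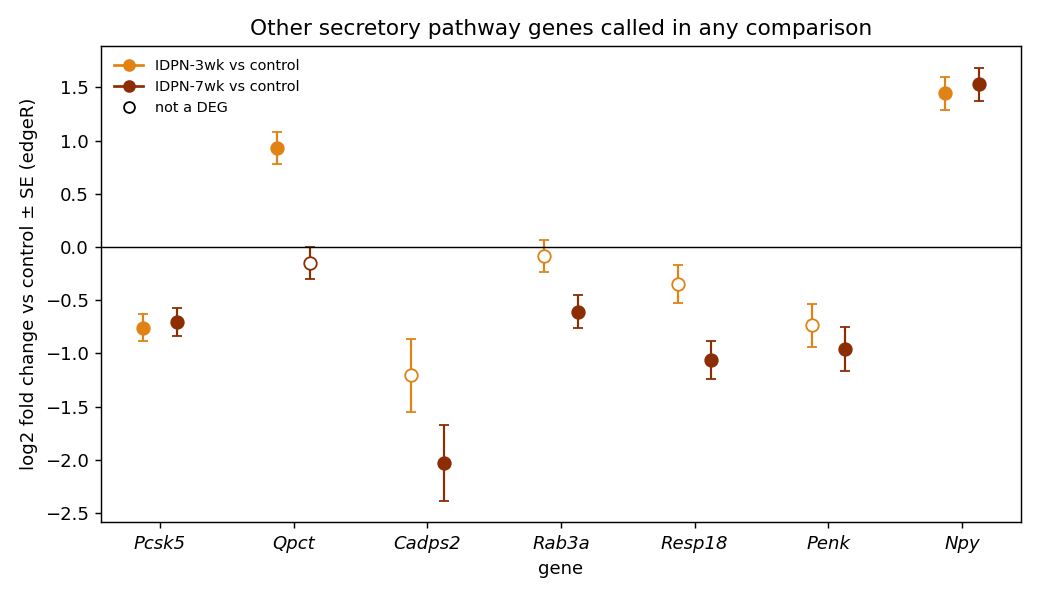
The log2 fold change ± SE against controls (edgeR) of the 7 genes outside the members that were DEGs in any comparison, at 3 and 7 weeks, with open points for values that were not DEGs. As DEGs, Npy is higher and Pcsk5 lower at both times, Qpct is higher at 3 weeks alone, and Cadps2, Rab3a, Resp18 and Penk are lower at 7 weeks alone.

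Markers of several cell types also differed between the groups, some of them at 3 weeks, when Cpe and Scg3 were not called. The counts of marker DEGs stand beside 1.21% of all genes lower at 3 weeks, and 3.13% lower and 2% higher at 7 weeks. Of 14 HC markers found, 5 were lower DEGs at 3 weeks and 9 at 7 weeks, and their summed level was 3184 to 3575 CPM in controls, 1585 to 1953 CPM in IDPN-3wk rats and 1522 to 1747 CPM in IDPN-7wk rats. Of 10 supporting cell markers, 1 was a lower DEG at 3 weeks, and 4 were lower and 1 higher at 7 weeks, with sums of 12955.5 to 13449.5 CPM in controls, 7764 to 9718 CPM in IDPN-3wk rats and 5211 to 7533 CPM in IDPN-7wk rats. Of 12 neuron markers, 3 were lower at 3 weeks (Snap25, Isl1 and Map2) and 1 at 7 weeks (Snap25). The sums of the 12 were 260 to 302, 163 to 167 and 162 to 205 CPM. The HC, supporting cell and neuron sums were below the control range in all 6 exposed rats. Such sums follow their most abundant genes, as with Otog among the supporting cell markers, at means of 8473, 4674 and 3533 CPM. Among the neuron markers Isl1 had the highest means, at 120, 72.8 and 82.9 CPM, whereas Nefl had 38.2, 33.3 and 33.2 CPM. Estimates were below 0 for 12 HC markers at 3 weeks and all 14 at 7 weeks. They were below 0 for 9 of 10 supporting cell markers at both times, and for 7 and 9 of 12 neuron markers.

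The sum of 8 Schwann cell markers was below the control range in every IDPN-7wk rat and overlapped it in the IDPN-3wk rats. It was 10128 to 12699 CPM in controls, 8162 to 10892 CPM in IDPN-3wk rats and 3637 to 7350 CPM in IDPN-7wk rats, with 2 lower DEGs at 7 weeks alone. IDPN-7wk 1 was lowest in this sum, at 32.9% of the control mean, and in the supporting cell sum, at 39.6%, as it was in Cpe and Scg3. The 8 macrophage markers held 1 higher DEG at 7 weeks. Their sum was 59.7 to 111 CPM in controls, 44.1 to 129 CPM in IDPN-3wk rats and 185 to 241 CPM in IDPN-7wk rats. The 6 stroma and vessel markers found held 1 higher DEG at 7 weeks, and the 4 melanocyte markers found held none. No marker of these lists was at 0 in all libraries of a group, and the part of any of these cell types in the results on the members was not tested.

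**Figure D4:**
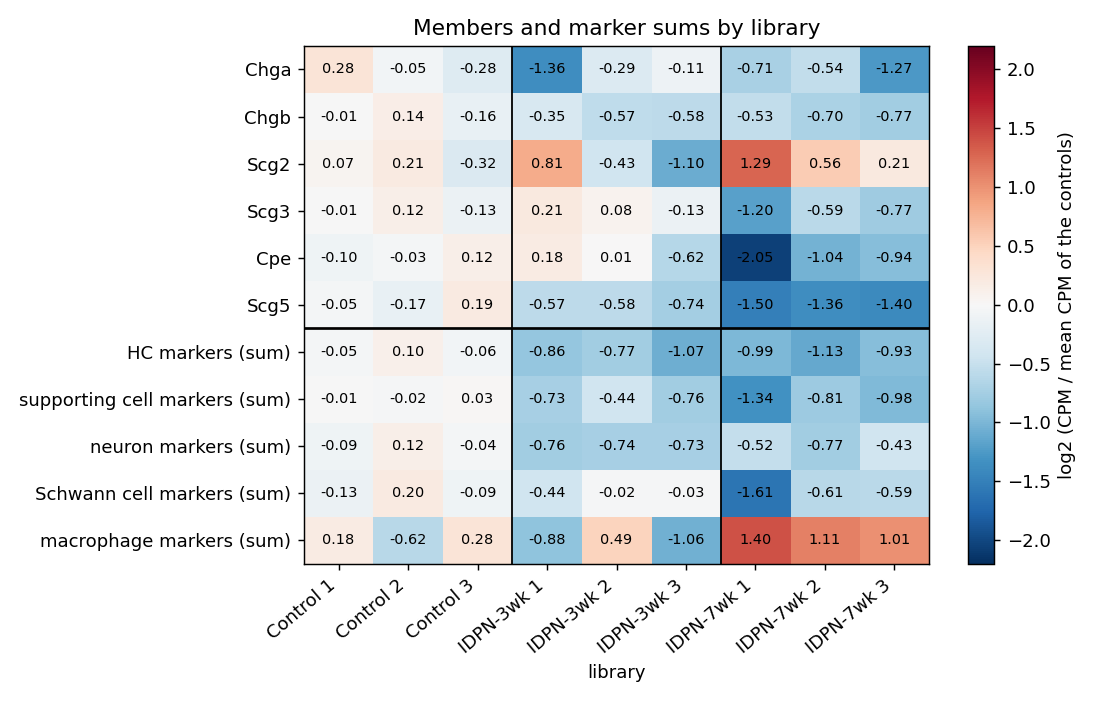
The level of 6 members and the summed level of 5 marker lists in each of the 9 libraries, as log2 of the ratio to the control mean (blue lower, red higher, with the value printed in each cell). In the IDPN-7wk columns all members shown but Scg2, and all marker sums but that of macrophages, are blue. Scg2 and the macrophage sum are red there, and Cpe is lowest in IDPN-7wk 1.

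The genes with a pattern most like that of Scg5 over the 9 libraries, by Pearson's r of log2(CPM + 2), were Spp1 (0.9954), Tdrd7 (0.9784), Crtac1 (0.9748), Syt1 (0.9735) and Pex5l (0.9731). Spp1 encodes osteopontin, a marker of type I HCs, and Syt1 the calcium sensor synaptotagmin 1 of synaptic vesicles. For Chgb they were LOC102546678 (0.9743), Ptchd4 (0.9739), Khdrbs2 (0.9734), Lss (0.9694) and AABR07001519.1 (0.9671). These values were picked as the highest of 15517 genes over libraries that include the group differences, and describe likeness only.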

How the data were processed

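RNA from the vestibular epithelia of 9 rats was sequenced after SMARTseq2, which copies polyadenylated RNA and amplifies it by PCR without molecular identifiers. The floor of 3 counts therefore covers counting error only, whereas the confidence intervals, from the fit below, also hold the spread between rats. The authors mapped reads to Rnor6.0 with STAR 2.5.3a and estimated counts per gene with RSEM 1.3.0 (versions per the submitters' processing notes). The deposited table holds these expected counts, also called estimated counts, as whole numbers without normalization, and whether strand was used for counting is not given in the sources used here, so overlapping antisense genes are uncertain. RSEM divides reads shared between similar genes, and the counts were used as deposited.

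In R 4.3.3, genes were filtered with filterByExpr (15517 of 32883 kept), normalized by TMM and tested with edgeR 4.0.16 (quasi-likelihood, robust) in a fit of all 9 libraries with a mean per group, with Benjamini-Hochberg adjustment over all genes within a comparison. Confidence intervals are from the same fit, with 6 residual degrees of freedom and 4.07 prior ones in the median. The procedure was tested on simulated data. Alternatives were DESeq2 1.42.0, RLE size factors, other filters and fold thresholds, the 2 groups compared alone, a non-robust fit, the low-detection libraries as a covariate or left out, and each library left out. Replicates of a group held different counts (lowest chi-square per gene 18.7).

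Named genes are the 9 members, DEGs of 3 lists (other convertases and trimming, dense core vesicle, peptide precursors), 6 further genes fixed by name (Pam, Furin, Pcsk1n, Ptprn, Ptprn2, Cadps) and, for the 2 members of smallest p, the 5 genes of highest Pearson's r. Members and lists were chosen with earlier results of these data known. RefSeq promoters (GRCr8) were searched on both strands for TGACGTCA, TGACG and TATAAA. Chga and Pcsk1 were not matched in that table.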

Additional observations from a re-analysis of the deposited data

Results flagged for a closer look

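A pair of genes named in the report differed between the IDPN groups by the direct test. Scg5 was lower in IDPN-7wk than in IDPN-3wk rats by -0.79 on the log2 scale (edgeR adjusted p = 0.0182), with all 3 IDPN-7wk rats below all 3 IDPN-3wk rats. Qpct was lower by -1.08 (edgeR adjusted p = 0.0124), again with all 3 IDPN-7wk rats below all 3 IDPN-3wk rats. Both calls were lost when the low-detection libraries, of which 2 are IDPN-3wk rats and none an IDPN-7wk rat, were left out (adjusted p = 0.0666 for Scg5 and 0.0978 for Qpct) or entered as a covariate (both 0.104).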

How the results depend on the processing

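No paired analysis was possible because the labels give no replicate numbers, and the code in the sample titles is shared by no control and exposed rat. Of the calls of the members, that of Scg5 at 7 weeks held in all 17 alternatives run, with log2 fold changes from -1.495 to -1.31. The 7-week calls of Chgb, Scg3 and Cpe held in 13, 13 and 12 of 17, and those of Scg5 at 3 weeks and between the IDPN groups in 8 and 10 of 17. The members called at 3 weeks went from 1 to 0 with only the 2 groups compared, with a fold change above 2 and without the low-detection libraries, and ranged from 0 to 1 with a library left out. At 7 weeks they went from 4 to 2 with a fold change above 2, ranged from 1 to 4 with a library left out, and were 5 without the low-detection libraries, where Chga and Pcsk1 were added and Cpe was lost. Between the IDPN groups, 1 became 3 with DESeq2, 2 with no filter on counts and 2 with at least 10 counts in every library. It became 0 with a fold change above 2, with the low-detection libraries as a covariate or without them, and ranged from 0 to 3 with a library left out. A fit without a library has fewer samples, and beyond that the cause of these changes was not tested.

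Estimates near 0 changed sign. Scg3 at 3 weeks was -0.18 without the low-detection libraries, and ranged from -0.0205 to 0.149 with a library left out. With a library left out, Scg2 at 3 weeks ranged from -0.73 to 0.32 and Cpe at 3 weeks from -0.27 to 0.0958, and without the low-detection libraries they were -1.23 and -0.55. Of the other genes, Pcsk5 between the IDPN groups was -0.0330 with those libraries as a covariate and -0.00451 without them, and ranged from -0.0393 to 0.126 with a library left out. Rab3a at 3 weeks was 0.0144 without them and ranged from -0.22 to 0.0418 with a library left out. Npy between the IDPN groups ranged from -0.0451 to 0.24 with a library left out. The alternatives for genes outside the members were added after the data were seen. Depth limits Pcsk1, Pcsk2 and Vgf, for which counts were 17 or fewer in any library; Pcsk2 and Vgf were not tested, and Pcsk1 was called at 7 weeks only without the low-detection libraries (edgeR adjusted p = 0.0320).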

Other observations

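Calcb, the precursor of beta-CGRP, had 13, 26 and 0 counts in the controls and 0, 1 and 12 in the IDPN-3wk rats. In the IDPN-7wk rats it had 187, 326 and 178 counts. Every IDPN-7wk rat was above every other rat, yet the gene was not called by edgeR at 7 weeks (adjusted p = 0.181) or between the IDPN groups (adjusted p = 0.191), and it was named after its values were seen. Other genes of the lists passed the adjusted p at 7 weeks with a fold change under 1.5: Ica1, an adaptor of dense core vesicle formation, was at -0.58 on the log2 scale (edgeR adjusted p = 0.0112), Ctsl, cathepsin L, at 0.54 (adjusted p = 0.0194) and Rab3d, a secretory granule GTPase, at 0.56 (adjusted p = 0.0347). These were also named after their values were seen.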
